A study of Mus musculus with 10 samples.

Results

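Cytotoxic granules kill only after they have been built, loaded, carried to the contact with the target and fused with the plasma membrane, and 10 genes of this route were followed here in mouse T cells: *Nkg7*, *Srgn*, *Rab27a*, *Stx11*, *Unc13d*, *Stxbp2*, *Lyst*, *Lamp1*, *Ctsc* and *Ctsw*. They were chosen by name for their known roles, but with earlier results of these data known. Counts of them beside all genes are therefore descriptive and no independent test. All 10 were measured among the 18193 genes of the arrays, with 20 probe sets in all. RNA was measured in 5 groups of 2 arrays each. CD4+ TEM (effector memory), CD4+ memory and CD8+ TEM cells came from day 25 of culture, and their references were naïve CD4+ and naïve CD8+ cells. Naïve cells (TCRβ+ CD62L+ CD44-) had been sorted from the spleen of wild-type C57BL/6 mice. The cultured cells grew from such naïve cells with IL-2 and γ-irradiated B lymphoma cells (LMP1/2A+), added weekly, which carry latent membrane proteins of the Epstein-Barr virus. The lymphoma lines came from B cells of GCB-LMP1/2 mice, in which Cγ1-Cre switches on Rosa26-LMP1flSTOP and Rosa26-LMP2AflSTOP in germinal center B cells, and were grown in Rag2-/- or Rag2-/- γC-/- hosts. The sources used here do not give the number of lymphoma lines behind the arrays or the surface gate of the memory group. That group is named by its label, and its sample titles hold the letters CM. In the flow cytometry of this culture, the study defined central-memory cells as CD62L+ CD44+ and TEM cells as CD62L- CD44+. It does not say that the memory arrays were sorted by that gate. The T cells themselves carried no transgene by the methods, and sample entries that name a *Foxo1* status and B cells were not used, since they do not describe T cells. That *Foxo1* status differs between the 2 arrays of the CD4+ memory and of the CD8+ TEM group, and the deposited design text names a gene-edited murine BL cell line. Whether either applies to these arrays is not settled by the sources used here, and if it did, the means and errors of those groups would cover arrays of unlike genotype.

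Killer lymphocytes store perforin and granzymes in secretory lysosomes. On contact with a target these organelles move along microtubules, dock under the membrane through a small GTPase, are primed by a Munc13 protein and fuse through SNARE proteins and their Sec1/Munc18 partner. In humans, loss of this docking, priming or fusion machinery causes hemophagocytic lymphohistiocytosis, and loss of *LYST* causes Chediak-Higashi syndrome with giant granules. Naïve helper T cells are not known as killers, whereas CD8+ T cells acquire these granules on activation.

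Values are RMA values, that is, background-corrected, quantile-normalized and probe-summarized signals on the log2 scale, so that a difference of 1 is a 2-fold difference. They are comparable between arrays for 1 gene but not between genes. Where a gene has several probe sets, the brightest on average was taken. Differences were tested with limma in 1 fit to the 10 arrays, p-values were adjusted after Benjamini and Hochberg across the 18193 genes, and a gene is called higher or lower at an adjusted p under 0.05. Array medians lay between 4.65 and 4.75. The 2 arrays of a group were least alike in CD4+ memory cells (Pearson's r = 0.977, with 3758 probe sets at least 2-fold apart). Naïve CD8+ cells followed (0.982, 2397 probe sets), then CD4+ TEM (0.989, 1576), naïve CD4+ (0.991, 943) and CD8+ TEM cells (0.994, 569). *Cd4*, the helper co-receptor, read 11.50 to 11.89 on the 6 CD4+ arrays and 4.10 to 6.89 on the 4 CD8+ arrays, and *Cd8b1*, a chain of the CD8 co-receptor, read 4.94 to 5.63 on the CD4+ and 10.98 to 11.54 on the CD8+ arrays. *Cd8a* read 7.67 and 8.17 in CD4+ TEM cells, against 5.16 and 4.99 in naïve CD4+ cells. All 5 T cell markers measured were above 6 on every array, and the 3 NK cell markers were under 6 on every array. B lineage markers moved with the culture: their mean level over 9 genes was 6.21 to 6.54 in CD4+ TEM, 6.80 to 7.38 in CD4+ memory and 6.18 to 6.63 in CD8+ TEM cells, against 3.78 to 3.87 in naïve CD4+ and 4.31 to 5.67 in naïve CD8+ cells. Of these 9 genes, 5 were called higher in CD4+ TEM, 5 in CD8+ TEM and 7 in CD4+ memory cells than in their naïve reference, and 0 lower. Over all genes, 16.4%, 20.9% and 13.5% were called higher in these comparisons. Single markers differed: *Ebf1* read 10.19 to 10.82 on the cultured arrays, and *Pax5*, a B cell factor, 3.58 to 4.33 on all arrays. RNA quality was read from the *Gapdh* control probe sets, whose 3' signal exceeded the 5' signal by 0.91 to 1.72 on the cultured arrays and by 2.42 to 2.75 on the naïve arrays. The part of these differences in the results was not tested. The naïve CD8+ arrays stood apart from each other. Replicate 2 had *Xist* at 3.97 against 12.51, *Ms4a1* at 7.02 against 3.15 and *Lyz2* at 8.70 against 5.20. The CD8+ results are therefore also given without replicate 2. Replicate 1 had the effector marker *Ifng* at 7.50 against 3.40, with 4.14 and 4.49 in naïve CD4+ cells. The effector markers *Cd44* (7.35 against 7.62), *Prdm1* (5.26 against 5.86) and *Tbx21* (6.13 against 6.34) were lower on replicate 1. Which array is nearer to naïve cells was not tested, so the values without replicate 2 are not preferred. Nothing in the labels says that the replicates are separate animals or cultures, so the p-values reflect no more than the spread among these arrays. That spread may be technical, except for the naïve CD8+ pair. Its arrays differ in *Xist*, which female cells express, and so did not come from the same cells. In sorted populations, fewer cells of a type and less RNA per cell cannot be told apart.

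The sequences around the starts of 4 of the genes are shown. *Nkg7*, *Rab27a* and *Stx11* had the 3 largest differences among the members in CD4+ memory cells and are shown with T-box and RUNX motifs, since T-box and RUNX factors are known regulators of killer genes in mouse T cells. *Lamp1*, the lysosome membrane gene, is shown with the E-box that TFEB-family factors of lysosome genes bind. The windows are RefSeq promoters of GRCm38.p6, written along the gene with 250 bases before the start and 50 after it. Of the 10 members, 8 matched the promoter table with 10 windows, and *Unc13d* and *Ctsw* are only named. Capitals mark the T-box motifs GGTGTG and AGGTGTGA and the RUNX motif TGTGGT, on either strand, in the first 3 sequences, and the E-box CACGTG in the last. The windows are chr7:43436888-43437187 (plus strand) for *Nkg7*, chr9:73044560-73044859 (plus strand) for the first of 2 *Rab27a* starts, chr10:12964210-12964509 (minus strand) for *Stx11* and chr8:13158911-13159210 (plus strand) for *Lamp1*.
Nkg7: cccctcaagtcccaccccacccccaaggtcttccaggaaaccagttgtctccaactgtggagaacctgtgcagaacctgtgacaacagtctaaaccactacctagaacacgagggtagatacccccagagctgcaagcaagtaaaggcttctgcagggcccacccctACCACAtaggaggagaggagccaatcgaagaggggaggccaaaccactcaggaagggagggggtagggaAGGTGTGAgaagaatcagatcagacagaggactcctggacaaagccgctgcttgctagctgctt
Rab27a: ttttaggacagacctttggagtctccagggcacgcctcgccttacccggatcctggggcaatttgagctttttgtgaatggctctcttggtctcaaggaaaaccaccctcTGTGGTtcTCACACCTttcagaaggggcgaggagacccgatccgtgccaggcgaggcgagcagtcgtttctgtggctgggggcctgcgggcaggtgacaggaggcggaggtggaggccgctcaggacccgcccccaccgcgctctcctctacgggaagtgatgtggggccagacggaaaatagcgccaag
Stx11: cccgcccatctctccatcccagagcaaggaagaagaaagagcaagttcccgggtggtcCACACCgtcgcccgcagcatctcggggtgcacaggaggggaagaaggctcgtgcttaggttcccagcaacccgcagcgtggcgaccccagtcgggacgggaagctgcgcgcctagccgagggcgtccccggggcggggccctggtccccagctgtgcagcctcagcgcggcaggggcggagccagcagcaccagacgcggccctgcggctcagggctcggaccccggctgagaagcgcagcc
Lamp1: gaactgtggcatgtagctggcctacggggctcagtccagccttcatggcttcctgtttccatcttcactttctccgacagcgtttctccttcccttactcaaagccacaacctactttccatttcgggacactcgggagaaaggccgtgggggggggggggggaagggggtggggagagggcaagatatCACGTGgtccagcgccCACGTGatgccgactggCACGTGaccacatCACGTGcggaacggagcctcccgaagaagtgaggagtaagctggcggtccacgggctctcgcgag

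The longer T-box motif AGGTGTGA, which contains the shorter one, was found in 1.28% of all 32851 promoter windows of this length and in those of 2 member genes. In *Nkg7* it begins 14 bases before the start on the gene's strand, and in *Rab27a* 132 bases before it on the other strand, close to a RUNX motif at 140 bases. *Stx11* and *Ctsc* held only the shorter GGTGTG, which 19% of all windows hold, at 192 and 116 bases before the start. TGTGGT, in 16.8% of all windows, was present in *Nkg7*, *Srgn*, *Rab27a* and *Lamp1*. *Lamp1* held 4 copies of CACGTG, all within the last 61 bases before the start, and *Stxbp2* and the second *Rab27a* start held 1 each, against 7.15% of all windows with any. The longer lysosomal (CLEAR) motif was searched only as the exact string of CACGTG with GT before and AC after it. This string is in 0.326% of windows and the AP-1 motif TGANTCA in 7.81%, and neither was in the members' windows. Near matches of the CLEAR motif were not counted, so this does not show that the members lack it. GGAAA, a core that NFAT binds and 61.3% of windows hold, was in those of 6 genes. A match here is a match of letters in these windows and nothing more.

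*Nkg7* encodes a small membrane protein of the granules of killer cells, which mouse T and NK cells need for efficient granule release. It read 11.94 and 11.74 on the CD4+ TEM arrays and 12.06 and 11.89 on the CD4+ memory arrays, against 5.74 and 5.20 on the naïve CD4+ arrays. On the CD8+ TEM arrays it read 12.42 and 12.30, against 12.30 and 12.69 on the naïve CD8+ arrays. Naïve CD4+ cells were thus the low group, apart from all other arrays, whereas the CD8+ TEM and naïve CD8+ arrays overlapped. The difference was 6.37 (SE 0.22, limma adjusted p = 7.16e-07), or 82.8-fold, in CD4+ TEM cells and 6.51 (SE 0.22, limma adjusted p = 1.1e-06) in CD4+ memory cells. Naïve CD4+ values lie low on the scale, not far above the array medians, and no detection call was used, so this fold is one between RMA values. In CD8+ TEM cells the difference was -0.13 (95% interval -0.63 to 0.37, limma adjusted p = 0.707), and 0.06 without naïve CD8+ replicate 2.

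*Srgn* encodes serglycin, the proteoglycan core to which granzymes and perforin are bound inside the granule. It was high on every array, with 13.06 and 13.02 in CD4+ TEM and 12.84 and 12.83 in CD4+ memory cells, against 12.65 and 12.57 in naïve CD4+ cells. The CD8+ TEM arrays read 13.10 and 13.08, against 12.89 and 12.23 in naïve CD8+ cells. Both TEM groups lay above their naïve reference without overlap, but no comparison of *Srgn* was called in the reported fit, although a variance trend in the fit called CD8+ TEM cells higher (0.53, limma adjusted p = 0.0236). The differences were 0.43 (95% interval -0.04 to 0.90, limma adjusted p = 0.176) for CD4+ TEM and 0.53 (0.06 to 1.0, limma adjusted p = 0.078) for CD8+ TEM cells. The CD8+ value was 0.20 (limma adjusted p = 0.346) without naïve CD8+ replicate 2, the lowest *Srgn* array, and 0.86 and called (limma adjusted p = 0.00348) without replicate 1. The CD4+ difference was called when either naïve CD8+ array was left out of the fit (limma adjusted p = 0.0296).

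*Rab27a* encodes the GTPase that docks granules at the plasma membrane. It read 10.09 and 10.23 in CD4+ TEM and 10.33 and 10.89 in CD4+ memory cells, against 8.72 and 8.63 in naïve CD4+ cells. CD8+ TEM cells gave readings of 10.39 and 10.54, against 7.37 and 7.69 in naïve CD8+ cells. All 6 cultured arrays exceeded all 4 naïve arrays, and the naïve CD8+ arrays were the lowest. *Rab27a* rose by 1.48 (SE 0.21, limma adjusted p = 0.00114) in CD4+ TEM, by 1.93 (SE 0.21, limma adjusted p = 0.000356) in CD4+ memory and by 2.94 (SE 0.21, limma adjusted p = 1.83e-05) in CD8+ TEM cells, the last being 3.10 without naïve CD8+ replicate 2.

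*Unc13d* encodes the Munc13 protein that primes docked granules and binds *Rab27a*. It read 8.54 and 8.12 in CD4+ TEM and 7.85 and 8.25 in CD4+ memory cells, against 8.36 and 8.19 in naïve CD4+ cells. Levels in CD8+ TEM cells were 8.44 and 8.34, against 9.14 and 8.99 in naïve CD8+ cells. The 3 CD4+ groups overlapped, and only the naïve CD8+ arrays stood apart, above all others. The CD4+ TEM difference was 0.06 (95% interval -0.40 to 0.51, limma adjusted p = 0.881). *Unc13d* was lower in CD8+ TEM than in naïve CD8+ cells (-0.67, SE 0.20, limma adjusted p = 0.027), a call lost when any of the 4 CD8+ arrays was left out (-0.75, limma adjusted p = 0.0558, without naïve CD8+ replicate 2, and -0.73, -0.62 and -0.60 without CD8+ TEM replicate 1, CD8+ TEM replicate 2 and naïve CD8+ replicate 1).

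*Stx11* encodes a syntaxin, a SNARE protein needed for fusion of the granule. It read 10.65 and 10.57 in CD4+ TEM and 10.26 and 10.05 in CD4+ memory cells, against 5.50 and 6.46 in naïve CD4+ cells. In CD8+ TEM cells it read 10.47 and 10.52, against 6.02 and 6.79 in naïve CD8+ cells. The lowest cultured array read 10.05 and the highest naïve array 6.79, and the naïve groups overlapped each other. The difference was 4.62 (SE 0.34, limma adjusted p = 3.25e-05), or 24.7-fold, in CD4+ TEM, 4.17 (SE 0.34, limma adjusted p = 7.72e-05) in CD4+ memory and 4.09 (SE 0.34, limma adjusted p = 3.87e-05), or 17.1-fold, in CD8+ TEM cells. Without naïve CD8+ replicate 2 the last was 4.48. Naïve values lie low on the scale and no detection call was used, so these folds, as for *Nkg7*, are ones between RMA values.

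*Stxbp2* encodes the Sec1/Munc18 protein that binds and stabilizes the *Stx11* product. It read 8.92 and 9.07 in CD4+ TEM and 8.66 and 8.89 in CD4+ memory cells, against 7.97 and 8.0 in naïve CD4+ cells. The CD8+ TEM arrays read 9.10 and 9.18, against 9.63 and 9.61 in naïve CD8+ cells. Naïve CD4+ cells were the lowest group and naïve CD8+ cells the highest, with the cultured groups between them. *Stxbp2* rose by 1.01 (SE 0.14, limma adjusted p = 0.000953) in CD4+ TEM and by 0.79 (SE 0.14, limma adjusted p = 0.00437) in CD4+ memory cells, and was lower in CD8+ TEM than in naïve CD8+ cells (-0.48, SE 0.14, limma adjusted p = 0.0242). The CD8+ call was lost when any of the 4 CD8+ arrays was left out (-0.49, limma adjusted p = 0.0586, without naïve CD8+ replicate 2, and -0.44, -0.52 and -0.47 without CD8+ TEM replicate 1, CD8+ TEM replicate 2 and naïve CD8+ replicate 1).

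**Figure D1:**
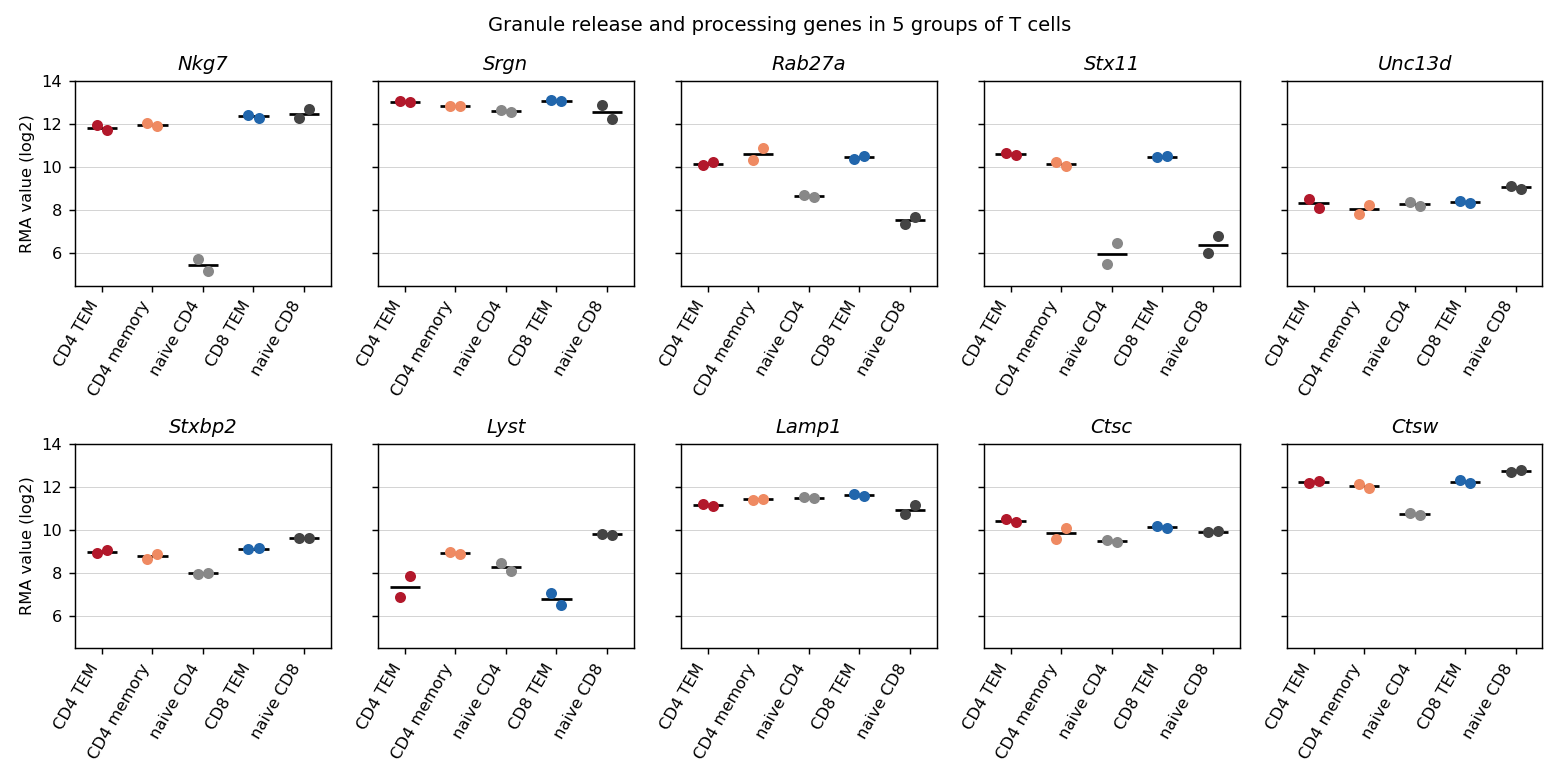
RMA values (log2, vertical axis) of the 10 genes in CD4+ TEM, CD4+ memory, naïve CD4+, CD8+ TEM and naïve CD8+ cells; points are the 2 arrays of a group and bars their mean. *Nkg7* is low only in naïve CD4+ cells (5.74 and 5.20), *Stx11* is low in both naïve groups (5.50 to 6.79), and *Lyst* is lowest in the TEM groups (6.51 to 7.85).

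*Lyst* encodes a large BEACH-domain protein that limits the size of lysosome-related organelles, and its loss gives the giant granules of the beige mouse. It read 6.90 and 7.85 in CD4+ TEM and 8.96 and 8.88 in CD4+ memory cells, against 8.47 and 8.10 in naïve CD4+ cells. CD8+ TEM cells gave readings of 7.09 and 6.51, against 9.81 and 9.77 in naïve CD8+ cells. The 4 TEM arrays were thus the lowest 4 of the 10, and both subsets had their TEM arrays below their naïve arrays. *Lyst* was 7.93-fold lower in CD8+ TEM than in naïve CD8+ cells (-2.99, SE 0.32, limma adjusted p = 0.000156), and -3.01 without naïve CD8+ replicate 2. The CD4+ TEM difference of -0.91 (95% interval -1.64 to -0.18, limma adjusted p = 0.0717) was not called, although it was without CD4+ TEM replicate 2 (-1.38, limma adjusted p = 0.0133).

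*Lamp1* encodes a heavily glycosylated protein of the lysosome membrane that appears on the cell surface, as CD107a, when granules fuse. It read 11.18 and 11.13 in CD4+ TEM and 11.40 and 11.45 in CD4+ memory cells, against 11.52 and 11.49 in naïve CD4+ cells. Levels in CD8+ TEM cells were 11.65 and 11.59, against 10.73 and 11.15 in naïve CD8+ cells. All arrays lay between 10.73 and 11.65, with the CD4+ TEM arrays under the naïve CD4+ arrays and the CD8+ TEM arrays over the naïve CD8+ arrays. *Lamp1* rose by 0.68 (SE 0.16, limma adjusted p = 0.00944) in CD8+ TEM cells, or 0.89 without naïve CD8+ replicate 2, and this call was lost without CD8+ TEM replicate 1 (0.65, limma adjusted p = 0.0592). The CD4+ TEM difference was -0.35 (95% interval -0.71 to 0.02, limma adjusted p = 0.157).

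*Ctsc* encodes cathepsin C, which activates granzymes by removing their N-terminal dipeptide. It read 10.49 and 10.37 in CD4+ TEM and 9.59 and 10.09 in CD4+ memory cells, against 9.53 and 9.42 in naïve CD4+ cells. In CD8+ TEM cells it read 10.18 and 10.08, against 9.89 and 9.96 in naïve CD8+ cells. CD4+ TEM cells were the highest group, above every other array. *Ctsc* rose by 0.96 (SE 0.18, limma adjusted p = 0.00489) in CD4+ TEM cells, and in CD8+ TEM cells it differed by 0.21 (95% interval -0.20 to 0.62, limma adjusted p = 0.43). The CD4+ call rests on the brightest of 3 probe sets: the study's filter on log intensity variation drops it and leaves a dimmer probe set at 0.29 (limma adjusted p = 0.648).

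*Ctsw* encodes cathepsin W, a papain-family protease of CD8+ T and NK cells whose role in killing is not settled. It read 12.19 and 12.26 in CD4+ TEM and 12.14 and 11.95 in CD4+ memory cells, against 10.79 and 10.71 in naïve CD4+ cells. The CD8+ TEM arrays read 12.33 and 12.16, against 12.67 and 12.78 in naïve CD8+ cells. As for *Stxbp2*, naïve CD4+ was the lowest and naïve CD8+ the highest group. *Ctsw* rose by 1.48 (SE 0.14, limma adjusted p = 0.000126) in CD4+ TEM and by 1.30 (SE 0.14, limma adjusted p = 0.000342) in CD4+ memory cells. In CD8+ TEM cells it was lower by a smaller amount (-0.48, SE 0.14, limma adjusted p = 0.025), a call lost without CD8+ TEM replicate 1 (-0.57, limma adjusted p = 0.052), CD8+ TEM replicate 2 (-0.39) or naïve CD8+ replicate 2 (-0.43, limma adjusted p = 0.088), under the study's filter (limma adjusted p = 0.0542) and in a fit to the CD8+ arrays alone (limma adjusted p = 0.0573).

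CD4+ TEM cells were set against naïve CD4+ cells to see which genes of the killing route differ in helper T cells after the culture. No culture without lymphoma cells is among the arrays, so contact with them, IL-2 and time in culture cannot be told apart. Of the 10 genes, 6 were higher and 0 lower (*Nkg7*, *Stx11*, *Rab27a*, *Ctsw*, *Stxbp2* and *Ctsc*), where 26.5% of all genes tested were called, 16.4% higher and 10.1% lower. The median difference of the members was 0.99, against 0.02 over all genes. Of the 4 not called, *Lyst* had an unadjusted p of 0.0211, and *Lamp1*, *Srgn* and *Unc13d* had unadjusted p of 0.059, 0.0686 and 0.779. All 6 called genes had both CD4+ TEM arrays above both naïve arrays, as 33.8% of all genes did, and all but *Ctsc* were called under each of 19 other settings (scalings, filters, probe set rules and fits, and each array left out).

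CD8+ TEM cells gave a split answer. Against naïve CD8+ cells 3 genes were higher (*Stx11*, *Rab27a* and *Lamp1*) and 4 lower (*Lyst*, *Unc13d*, *Stxbp2* and *Ctsw*), where 38.1% of all genes were called, 20.9% higher and 17.2% lower. The member median was 0.04 and that of all genes 0.06. *Rab27a*, *Stx11* and *Lyst* were called under all 19 other settings. *Unc13d*, *Stxbp2* and *Ctsw* lie between -0.75 and -0.39 under all settings that keep the gene, except for -0.79 of *Stxbp2* with other probe sets.

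Whether the members changed alike in both subsets was tested as the CD4+ TEM change minus the CD8+ TEM change. It was called higher for 4 members and lower for 2, where 12.5% of all genes were called, 8.03% higher and 4.49% lower. The difference of the changes was 6.50 (SE 0.30, limma adjusted p = 0.000186) for *Nkg7*. It was 1.96 (SE 0.20, limma adjusted p = 0.00122) for *Ctsw* and 1.49 (SE 0.19, limma adjusted p = 0.00332) for *Stxbp2*, each of which was higher in CD4+ TEM cells and lower in CD8+ TEM cells than in the naïve reference. For *Lyst* it was 2.08 (SE 0.45, limma adjusted p = 0.0218), the fall in CD8+ TEM cells being the larger. *Rab27a* changed less in CD4+ than in CD8+ TEM cells (-1.45, SE 0.29, limma adjusted p = 0.0169), and *Lamp1* had -1.03 (SE 0.22, limma adjusted p = 0.0223). *Stx11* differed by 0.53 (95% interval -0.56 to 1.63, limma adjusted p = 0.555), an interval that includes differences of over 1 log2 unit. *Srgn*, *Unc13d* and *Ctsc* differed by -0.10, 0.73 and 0.75 with limma adjusted p of 0.88, 0.138 and 0.0971, and *Ctsc* was called when either CD4+ memory array was left out of the fit (limma adjusted p = 0.0338). The calls of *Nkg7*, *Stxbp2* and *Ctsw* held under every setting, while those of *Rab27a*, *Lyst* and *Lamp1* held under 13 of 19, 14 of 19 and 12 of 18 other settings. *Rab27a* lost its call without CD4+ TEM replicate 1 or any 1 naïve CD4+, CD8+ TEM or naïve CD8+ array other than naïve CD8+ replicate 2 (limma adjusted p of 0.0501 to 0.073). *Lamp1* lost it without any 1 CD4+ TEM, naïve CD4+ or CD8+ TEM array (limma adjusted p of 0.059 to 0.0844). *Lyst* lost it without naïve CD4+ replicate 2, CD8+ TEM replicate 2 or naïve CD8+ replicate 1 (limma adjusted p of 0.0824, 0.0852 and 0.0619), and with the mean of its probe sets, at 1.07 (limma adjusted p = 0.0517). Without naïve CD8+ replicate 2, *Lyst* was at 2.10 (limma adjusted p = 0.05, not under the threshold).

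**Figure D2:**
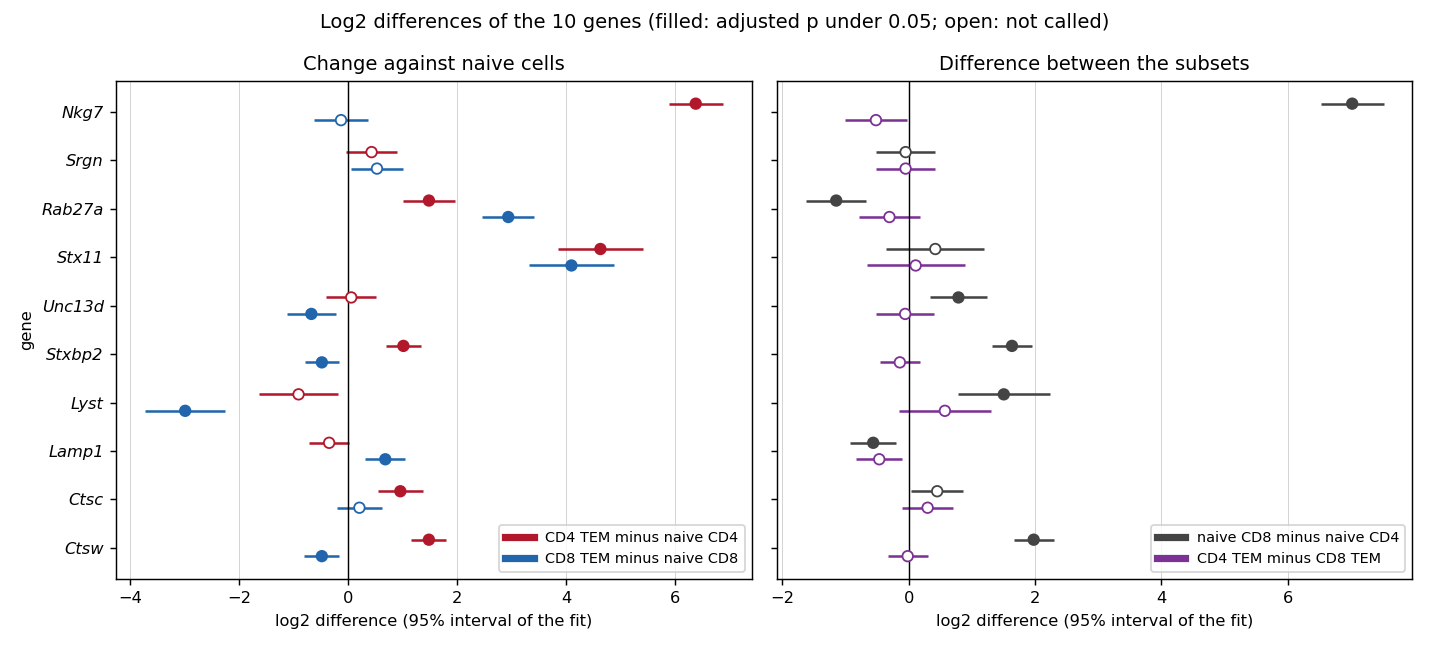
Log2 differences (horizontal axis) with 95% intervals of the fit for the 10 genes; filled points are called at adjusted p under 0.05. On the left, CD4+ TEM minus naïve CD4+ (red) and CD8+ TEM minus naïve CD8+ (blue) part most for *Nkg7* (6.37 and -0.13); on the right, naïve CD8+ minus naïve CD4+ (grey) reaches 7.02, while no CD4+ TEM minus CD8+ TEM difference (purple) is called.

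The naïve groups themselves differed in most of the members. In naïve CD8+ against naïve CD4+ cells 5 members were higher and 2 lower, where 20.5% of all genes were called, 13.9% higher and 6.65% lower. *Nkg7* stood 7.02 higher (SE 0.22, limma adjusted p = 8.45e-06), or 130-fold, *Ctsw* 1.98 (SE 0.14, limma adjusted p = 0.000111), *Stxbp2* 1.63 (SE 0.14, limma adjusted p = 0.000218), *Lyst* 1.51 (SE 0.32, limma adjusted p = 0.0122) and *Unc13d* 0.79 (SE 0.20, limma adjusted p = 0.0253). *Rab27a* and *Lamp1* were lower in naïve CD8+ cells, by -1.15 (SE 0.21, limma adjusted p = 0.00624) and -0.56 (SE 0.16, limma adjusted p = 0.0397). *Stx11*, *Srgn* and *Ctsc* differed by 0.42, -0.05 and 0.45 and were not called, except *Ctsc* when either CD4+ memory array was left out (limma adjusted p = 0.043). Without naïve CD8+ replicate 2, *Nkg7* was at 6.83, *Ctsw* at 1.93, *Stxbp2* at 1.65, *Lyst* at 1.52, *Rab27a* at -1.31 and *Lamp1* at -0.77, all still called, and *Unc13d* at 0.86 was not (limma adjusted p = 0.056). *Rab27a* lost its call with the mean of its probe sets (-0.46, limma adjusted p = 0.133). *Unc13d* was also lost with quantile normalization (0.71, limma adjusted p = 0.0538) and without either naïve CD4+ array or naïve CD8+ replicate 1 (limma adjusted p of 0.0721 to 0.137), and *Lyst* without naïve CD4+ replicate 2 or naïve CD8+ replicate 1 (limma adjusted p of 0.0853 and 0.0579). *Lamp1* was called under 8 of 18 other settings and lost without any 1 TEM or naïve array other than naïve CD8+ replicate 2 (-0.36 without naïve CD8+ replicate 1, limma adjusted p = 0.144).

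No member was called between CD4+ TEM and CD8+ TEM cells by its brightest probe set. Of the 10 genes 0 were called by limma, where 5.72% of all genes were called, 2.19% higher and 3.53% lower, and 2 had an unadjusted p under 0.05. These were *Nkg7* at -0.52 (95% interval -1.02 to -0.02, unadjusted p = 0.0426) and *Lamp1* at -0.47 (-0.83 to -0.10, unadjusted p = 0.0184), both lower in CD4+ TEM cells. For *Ctsw* the difference was -0.02 (-0.33 to 0.30), for *Stxbp2* -0.14 (-0.46 to 0.18), for *Unc13d* -0.06 (-0.51 to 0.40) and for *Srgn* -0.05 (-0.52 to 0.42). *Rab27a* had -0.31 (-0.78 to 0.17), *Ctsc* 0.30 (-0.11 to 0.71), *Stx11* 0.11 (-0.66 to 0.88) and *Lyst* 0.57 (-0.16 to 1.30). The absence of a call does not show equal levels.

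CD4+ memory cells of the same day were compared with naïve CD4+ and with CD4+ TEM cells. Against naïve CD4+ cells 5 members were higher and 0 lower, where 23.2% of all genes were called, 13.5% higher and 9.78% lower. They were *Nkg7*, *Stx11*, *Rab27a*, *Ctsw* and *Stxbp2*, and each was called under all 19 other settings. *Ctsc* differed by 0.37 (95% interval -0.04 to 0.77, limma adjusted p = 0.189), and was called without CD4+ memory replicate 1 (0.61, limma adjusted p = 0.0317). The TEM and memory comparisons share the naïve CD4+ arrays, so the values stand side by side only. The CD4+ TEM and CD4+ memory differences were 6.37 and 6.51 for *Nkg7*, 4.62 and 4.17 for *Stx11*, 1.48 and 1.93 for *Rab27a*, 1.48 and 1.30 for *Ctsw*, and 1.01 and 0.79 for *Stxbp2*. Set directly against CD4+ memory cells, CD4+ TEM cells had 0 members higher and 1 lower, where 5.52% of all genes were called, 3.89% higher and 1.64% lower. The gene was *Lyst* (-1.54, SE 0.32, limma adjusted p = 0.0303), which held under 9 of 19 other settings and was lost, among others, in a fit to the 4 arrays alone (limma adjusted p = 0.166) and without CD4+ TEM replicate 1, the lower TEM array (-1.07, limma adjusted p = 0.114), or without either array of the memory, naïve CD4+ or naïve CD8+ group (limma adjusted p of 0.0513 to 0.0801). *Ctsc* was the next by p, at 0.59 (95% interval 0.18 to 1.0, limma adjusted p = 0.106), and was called without CD4+ memory replicate 2 (0.84, limma adjusted p = 0.0269). In the same comparison 7 of 11 granule cargo genes were called higher, with *Gzma*, a granule protease, at 12.39 in CD4+ TEM and 4.09 in CD4+ memory cells.

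Ordered by mean, most steps between neighbouring groups were not called, which does not show equal levels. For *Nkg7* the order was naïve CD8+, CD8+ TEM, CD4+ memory, CD4+ TEM and naïve CD4+, and only the last step was called. *Stx11* ran from CD4+ TEM over CD8+ TEM and CD4+ memory to naïve CD8+ and naïve CD4+, with a called step only between CD4+ memory and naïve CD8+ (limma adjusted p = 8.51e-05). *Rab27a* ran from CD4+ memory over CD8+ TEM and CD4+ TEM to naïve CD4+ and naïve CD8+, with both of the last steps called. *Stxbp2* and *Ctsw* shared the order naïve CD8+, CD8+ TEM, CD4+ TEM, CD4+ memory and naïve CD4+, with the first and the last step called. In *Unc13d* only the step from naïve CD8+ to CD8+ TEM was called. *Lyst*, *Srgn*, *Lamp1* and *Ctsc* had no called step between neighbours, although *Lyst* spanned 2.99 between its highest group, naïve CD8+, and its lowest, CD8+ TEM. The spread of the 5 means was 7.02 for *Nkg7*, 4.62 for *Stx11* and 3.08 for *Rab27a*, and 0.53 for *Srgn*, the smallest of the members.

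Of the 10 members, 5 have more than 1 probe set, and these did not always move together. For *Stx11* the dimmer probe set gave 4.46 (SE 0.35, limma adjusted p = 6.87e-05) in CD4+ TEM and 4.43 (SE 0.35, limma adjusted p = 4.25e-05) in CD8+ TEM cells. The other *Stxbp2* probe sets gave 1.15 and 0.89 in CD4+ TEM and -0.79 and -0.64 in CD8+ TEM cells, all called, so that all 3 moved up in CD4+ and down in CD8+ cells. For *Rab27a* the 3 dimmer probe sets, with means of 4.35 to 5.59, gave 0.34 to 1.0 in CD4+ TEM and 0.53 to 2.46 in CD8+ TEM cells, with 1 and 2 called. Of these, 1 was lower in CD4+ TEM than in CD8+ TEM cells (-1.38, limma adjusted p = 0.016). The pair of further *Lyst* probe sets averaged 3.42 and 3.53, close to the floor of the array, and 1 of them was called in CD8+ TEM cells (-0.87, limma adjusted p = 0.0135). The dimmer *Ctsc* probe sets were at 0.29 and 0.97 in CD4+ TEM (limma adjusted p = 0.753 and 0.215) and at -0.27 and -0.32 in CD8+ TEM cells (limma adjusted p = 0.742 and 0.693).

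**Figure D3:**
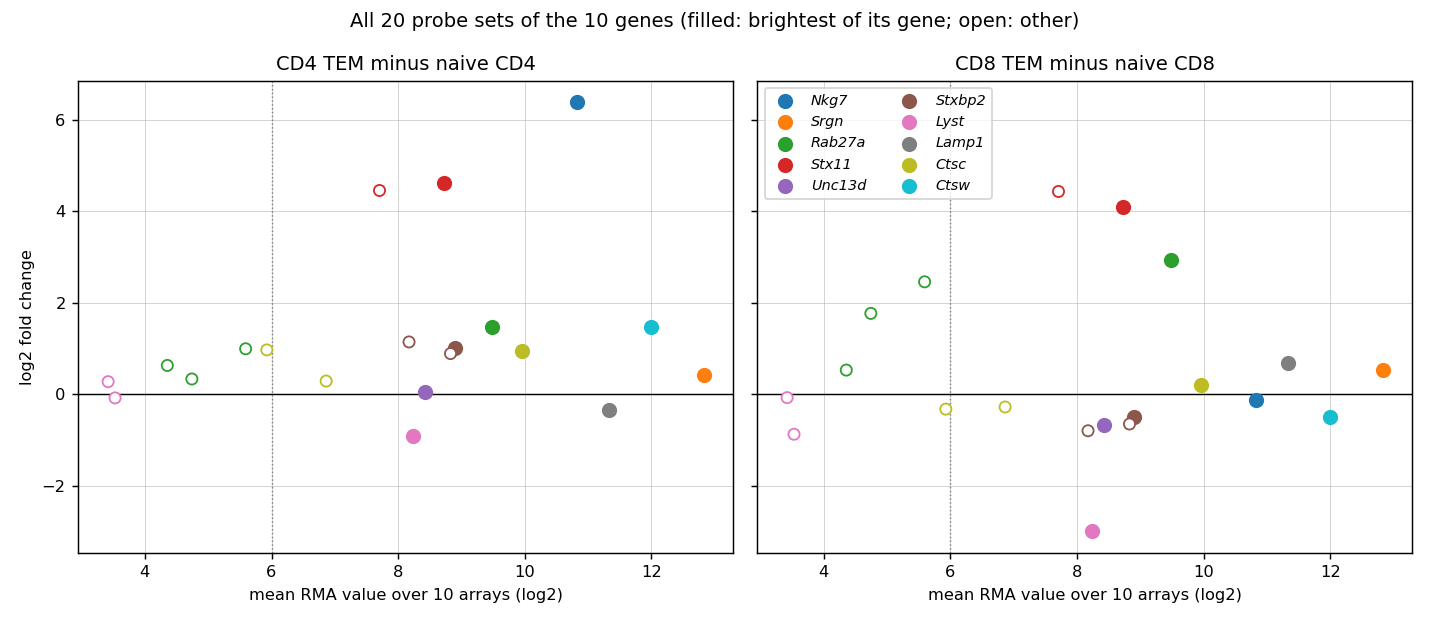
Log2 fold change (vertical axis) against mean RMA value over 10 arrays (log2, horizontal axis) for the 20 probe sets of the 10 genes, with CD4+ TEM minus naïve CD4+ on the left and CD8+ TEM minus naïve CD8+ on the right; filled points are the brightest probe set of a gene, open points the others, and the dotted line marks 6. The open *Stx11* and *Stxbp2* points lie near their filled ones, and the open *Rab27a*, *Lyst* and *Ctsc* points are mostly dim.

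For each member the 2 genes with the most similar pattern were looked up by Pearson's r over the 10 arrays, among 10042 genes with at least 2 arrays above 6. These values describe points that share groups and arrays and carry no test. *Nkg7* was closest to *Racgap1* (r = 0.995) and *Traf1* (0.989), both low in naïve CD4+ cells alone: *Racgap1* read 8.95 and 9.19 in CD4+ TEM and 9.36 and 9.12 in CD8+ TEM cells, against 5.55 and 5.53 in naïve CD4+ and 9.29 and 9.22 in naïve CD8+ cells. *Stx11* was closest to the mitotic genes *Cdk1* (0.997) and *Tpx2* (0.996), low in both naïve groups. *Srgn* was closest to *Rgs1* (0.981) and *Irf4* (0.966), which like it were lower on naïve CD8+ replicate 2 than on replicate 1. *Rgs1* read 5.26 against 9.26, with 7.19 and 7.30 in naïve CD4+ cells between them. *Irf4* read 7.47 against 10.18, with 8.81 and 8.57 in naïve CD4+ cells between them. *Rab27a* paired with *Ceacam15* and *Gm11110* (0.989 each), *Unc13d* with *Plec* (0.969) and *Zswim8* (0.965), *Stxbp2* with *Haao* (0.989) and *Brox* (0.974), and *Ctsw* with *Brox* (0.986) and *Limk1* (0.983). *Lyst* paired with *Hid1* (0.985) and *Gramd3* (0.979), *Lamp1* with *Armc10* (0.952) and *Pgam5* (0.939), and *Ctsc* with *Hoxb4* (0.955) and *Fam114a1* (0.952). Among the members, *Stxbp2* and *Ctsw* had r = 0.959, *Nkg7* and *Ctsw* 0.956, and *Rab27a* and *Stx11* 0.899.

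Other genes of the granule route were counted in lists, which were also chosen with earlier results of these data known. They are given with their medians beside the medians over all genes of 0.02 (CD4+ TEM) and 0.06 (CD8+ TEM). Over all genes, 16.4% were called higher and 10.1% lower in CD4+ TEM cells, and 20.9% higher and 17.2% lower in CD8+ TEM cells. Of 35 fusion and docking partners measured, 13 (37.1%) were higher and 1 (2.86%) lower in CD4+ TEM cells (median 0.27), and 15 (42.9%) were higher and 4 (11.4%) lower in CD8+ TEM cells (median 0.41). *Rab27b*, the close relative of *Rab27a*, was called higher in both: its mean was 9.88 in CD4+ TEM cells, against 3.39 in naïve CD4+ cells (6.49, SE 0.14, limma adjusted p = 1.57e-07), and 9.68 in CD8+ TEM cells, against 3.30 in naïve CD8+ cells (6.38, SE 0.14, limma adjusted p = 1.55e-07). Both naïve means lie below the array medians, near the floor, so the size of these differences is not resolved. *Sytl1* (1.69), which encodes a synaptotagmin-like Rab27 effector, and *Stx12* (1.54) and *Rab3d* (1.51), a syntaxin and a secretory Rab, were also called higher in CD4+ TEM cells. *Rab11a* (1.71), a recycling Rab, *Stx7* (1.58) and *Stx12* (1.57) were called higher in CD8+ TEM cells. The change differed between the subsets for *Stx16* (1.42, limma adjusted p = 0.012), *Vamp7* (-1.24, limma adjusted p = 0.0143) and *Snap23* (-1.18, limma adjusted p = 0.0215), all of them SNARE genes.

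Of 35 genes of granule and lysosome biogenesis, 7 (20%) were higher and 2 (5.71%) lower in CD4+ TEM cells (median 0.21), and 5 (14.3%) were higher and 14 (40%) lower in CD8+ TEM cells (median -0.03). The shares higher are near that of all genes in CD4+ TEM cells and below it in CD8+ TEM cells. The CD4+ TEM list was led by *Hps6* (1.26), *Atp6v1a* (1.08), *Lrba* (1.07), a relative of *Lyst*, and *Vps39* (0.95). In CD8+ TEM cells *Atp6v1a* (2.02), a subunit of the proton pump, and *Lamp2* (1.66), the relative of *Lamp1*, rose, while *Ap3d1* (-1.68), a subunit of the AP-3 sorting adaptor, and *Hps3* (-1.62), of a complex that builds lysosome-related organelles, fell. Of 16 cathepsins and inhibitors, 4 (25%) were higher and 3 (18.8%) lower in CD4+ TEM cells (median 0.33), and 6 (37.5%) were higher and 3 (18.8%) lower in CD8+ TEM cells (median 0.56). *Cst7*, which encodes cystatin F, an inhibitor of cathepsin C, rose by 3.12 (SE 0.27, limma adjusted p = 7.91e-05) in CD4+ TEM cells, with means of 10.48 against 7.36 in naïve CD4+ cells. *Ctse* (-2.74) and *Ctsl* (-1.86) fell there and *Ctsz* (1.74) rose. *Cst3* (2.45), *Ctsz* (2.28), *Cstb* (1.93) and *Ctsf* (1.75) rose in CD8+ TEM cells.

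Of the 11 cargo genes, 7 (63.6%) were higher and 1 (9.09%) lower in CD4+ TEM cells (median 6.05), and 9 (81.8%) were higher and 1 (9.09%) lower in CD8+ TEM cells (median 3.62). *Gzmc* (9.51), *Gzmb* (9.40), *Gzmg* (7.36) and *Gzma* (6.75), all granzymes, were called higher in CD4+ TEM cells, and *Gzmc* (9.46), *Gzmb* (8.11), *Gzma* (6.77) and *Gzme* (5.16) in CD8+ TEM cells. Their means were 2.84 to 5.64 in naïve CD4+ cells and 2.37 to 4.92 in naïve CD8+ cells, most of them below the array medians, so the sizes and order of these differences, and the list medians that rest on them, are not resolved. *Prf1*, which encodes the pore former perforin, was the gene called lower in both. It read 6.17 and 6.04 in CD4+ TEM cells, against 7.42 and 7.31 in naïve CD4+ cells, and 7.05 and 6.62 in CD8+ TEM cells, against 8.75 and 8.51 in naïve CD8+ cells (-1.26 and -1.80).

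**Figure D4:**
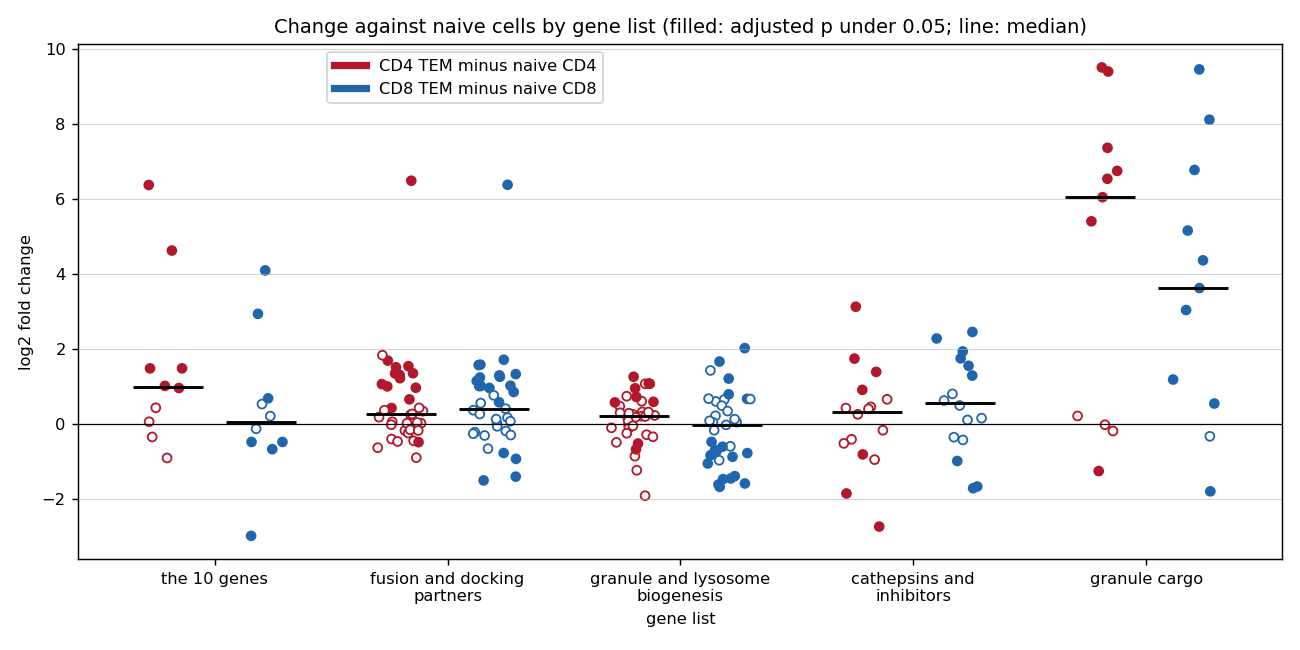
Log2 fold change (vertical axis) of single genes by list, CD4+ TEM minus naïve CD4+ in red on the left of each list and CD8+ TEM minus naïve CD8+ in blue on the right; filled points are called at adjusted p under 0.05, and bars are medians. The medians of the 10 genes are 0.99 and 0.04, and those of the cargo genes 6.05 and 3.62.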

How the data were processed

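RNA was labelled with the 3' IVT Express Kit and hybridized to Affymetrix whole-genome mouse arrays. The authors applied RMA with BRB-ArrayTools (version not given in the sources used here), and the deposited log2 values were taken without further scaling. Groups came from the sample titles and source names. Of 45101 probe sets, 64 are controls, 932 carry several symbols and 9160 none in the platform annotation, and these were left out. The remaining 34945 were named with symbols updated through Entrez identifiers of GRCm38.p6 and reduced to 18193 genes by the highest mean. The members and lists were chosen with earlier results of these data known. The text names all members, up to 4 called genes of each list with the largest change per TEM comparison, and the 2 genes most like each member. *Racgap1*, *Rgs1*, *Irf4*, *Stx16*, *Vamp7* and *Snap23* values, and marker genes, were chosen after their values were seen. A group-means model was fitted to 10 arrays with limma 3.58.1 in R 4.3.3 (5 residual degrees of freedom, two-sided tests) and was tested on simulated data. Figures used matplotlib 3.10.9. Errors are standard errors of the fit. Precision is limited by the number of arrays. The table gives no scan date or slide, so no batch was tested. The alternatives were the mean of a gene's probe sets, probe sets not marked as shared, the study's log intensity variation filter (p at most 0.01), 2 arrays above 6, median centring, quantile normalization, a variance trend, the compared groups alone, a replicate block and each array left out.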

Additional observations from a re-analysis of the deposited data

Results flagged for a closer look

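The change in CD4+ TEM cells differed from that in CD8+ TEM cells, each against its own naïve reference, for 6 of the 10 genes. This was by a test of the difference itself, which called 12.5% of all genes. *Nkg7* differed by 6.50 (SE 0.30, limma adjusted p = 0.000186), with 6.37 in CD4+ TEM and -0.13 in CD8+ TEM cells. *Ctsw* differed by 1.96 (SE 0.20, limma adjusted p = 0.00122) and *Stxbp2* by 1.49 (SE 0.19, limma adjusted p = 0.00332), and both had opposite signs in the subsets on all arrays. *Lyst* differed by 2.08 (SE 0.45, limma adjusted p = 0.0218), *Rab27a* by -1.45 (SE 0.29, limma adjusted p = 0.0169) and *Lamp1* by -1.03 (SE 0.22, limma adjusted p = 0.0223). These were less stable: the calls of *Lyst*, *Rab27a* and *Lamp1* held under 14 of 19, 13 of 19 and 12 of 18 other settings. For every gene the difference of the changes is, by arithmetic, the sum of naïve CD8+ minus naïve CD4+ and CD4+ TEM minus CD8+ TEM. These parts were 7.02 and -0.52 for *Nkg7*, 1.98 and -0.02 for *Ctsw* and 1.63 and -0.14 for *Stxbp2*. They were 1.51 and 0.57 for *Lyst*, -1.15 and -0.31 for *Rab27a* and -0.56 and -0.47 for *Lamp1*. No formal test for an outlying array was run, since each group has 2 arrays.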

How the results depend on the processing

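Under other settings 1259 values of single genes kept their direction and their side of the threshold, 77 lost and 13 gained a call, and 30 changed sign, 0 of them called under the other setting and 2 called in the reported fit (*Rab27a* between the naïve groups and in the difference of the changes, on its dimmest probe set). The calls of *Nkg7*, *Stx11*, *Rab27a*, *Ctsw* and *Stxbp2* in CD4+ TEM and memory cells, of *Rab27a*, *Stx11* and *Lyst* in CD8+ TEM cells and of *Nkg7*, *Ctsw* and *Stxbp2* in the difference of the changes and between the naïve groups held throughout with 1 value per gene. Members called lower in CD4+ TEM against memory cells dropped to 0 with the mean of probe sets, the compared groups alone or the replicate block. Those lower in naïve CD8+ against naïve CD4+ cells dropped to 1 with the mean of probe sets, the study's filter (which drops *Srgn*, *Unc13d* and *Lamp1*), quantile normalization, the compared groups alone or the replicate block. With the filter, 2 members were lower in CD8+ TEM cells and 1 in the difference of the changes. Leaving out each array, members called higher and lower numbered 6 to 7 and 0 to 1 for CD4+ TEM, 2 to 4 and 1 to 4 for CD8+ TEM, 3 to 5 and 0 to 2 for the difference of the changes, 5 to 6 and 0 for memory, 0 to 1 and 0 to 1 for TEM against memory, 3 to 6 and 1 to 2 for the naïve groups, and 0 and 0 for CD4+ TEM against CD8+ TEM cells. Genes called in all then ranged from 3185 to 5346 (CD4+ TEM), 5230 to 7389 (CD8+ TEM), 982 to 2774 (difference of the changes), 2575 to 4497 (memory), 490 to 1140 (TEM against memory, 1005 in the reported fit and 223 with the compared groups alone), 2109 to 4218 (naïve groups) and 219 to 1436 (TEM groups). Deviations of same-numbered arrays correlated between -0.04 and 0.03. With 1 deviation per gene and group, this cannot exclude that same-numbered arrays share a culture. The replicate block removed the call of *Lyst* in TEM against memory cells (-1.54, limma adjusted p = 0.0513). It also removed that of *Lamp1* between naïve groups (-0.56, limma adjusted p = 0.0553). Sign changes in CD8+ TEM cells were *Ctsc* at -0.13 with the mean, at -0.27 with the filter and at -0.32 and -0.27 on its dimmer probe sets, and *Nkg7* at up to 0.064 (from -0.32) with arrays left out. In memory cells *Ctsc* read -0.16 with the mean and -0.93 with the filter and a dimmer probe set. In TEM against memory cells *Rab27a* read 0.013 with the mean and 0.30, 0.11 and 0.10 on dimmer probe sets. Between the naïve groups *Ctsc* read -0.55 with the filter and a dimmer probe set, *Srgn* 0.070 with quantile normalization and -0.38 to 0.28 with arrays left out, *Stx11* -0.19 on its dimmer probe set and -0.059 to 0.90 with arrays left out, and *Rab27a* 0.49 on its dimmest. In the difference of the changes *Srgn* read 0.025 with quantile normalization and -0.43 to 0.23 with arrays left out, and *Rab27a* 0.10 on its dimmest probe set. In CD4+ TEM cells *Unc13d* read -0.15 to 0.27 with arrays left out and *Lyst* 0.28 on a dim probe set. Between the TEM groups *Ctsw* read 0.031 with quantile normalization and -0.10 to 0.072 with arrays left out, *Unc13d* -0.27 to 0.15 and *Lyst* -0.35 on a dim probe set. The cause was not tested.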
